A study of Rattus norvegicus with 4 samples.

Results

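Glycogen is the glucose store of skeletal muscle, and 8 genes of its synthesis and breakdown were listed by symbol to be described here: Pygm, Phka1, Phkb, Phkg1, Pgm1, Gys1, Gbe1 and Ppp1r3a. All probe sets of the deposited array table that the platform's annotation gives to these symbols were taken, whatever their values, and a probe set is the group of short oligonucleotides by which an Affymetrix array reads a transcript. The annotation gave 9 probe sets to 4 of the 8 genes, with 2 for Pygm, 1 for Phka1, 3 for Phkg1 and 3 for Pgm1, among 4736 genes that had a probe set of their own in the table. The 4 remaining genes, Gys1, Gbe1, Phkb and Ppp1r3a, had no probe set under their symbol and were not analysed here.

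The study compared the soleus, a slow postural hindlimb muscle, of female rats in 2 groups of 2 RNA pools. Unloaded rats were kept from standing on their hindlimbs for 10 h daily over 11 days, and control rats were caged with their usual standing and walking for the same 11 days. Soleus RNA of 4 to 5 rats was combined in each pool, with 1 array per pool, so the spread between replicates is that between pools and not between single animals. No genetic change was described in either group, and the labels give neither strain nor age.

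Glycogen is built when phosphoglucomutase turns glucose 6-phosphate into glucose 1-phosphate, which is activated and then added to a primed chain by glycogen synthase, with branches set by the branching enzyme. It is broken down by glycogen phosphorylase, which phosphorylase kinase switches on when calcium rises during contraction or when adrenaline acts through cyclic AMP. Protein phosphatase 1, held on the glycogen particle by targeting subunits, reverses these phosphorylations and favours storage. Lack of the muscle phosphorylase or of muscle phosphorylase kinase subunits is known in humans to cause glycogen storage disease of muscle.

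No probe set of the glycogen genes changed between the groups at an adjusted p under 0.05 (limma with Benjamini-Hochberg adjustment over all 5257 tested probe sets). All 9 had passed the filter on dim probe sets, and 0 of 9 were called, against 5.25% of all tested probe sets. The adjusted p of the 9 ran from 0.201 to 0.825. At an unadjusted p under 0.05, 1 of the 9 passed, against 20.8% of all tested probe sets. Values below are the deposited MAS5 signals, which are on a linear scale in arbitrary units. Log2 fold changes are unloaded minus control on the scale of log2(signal + 9), with the standard error (SE) and the 95% interval of the limma fit. The number of arrays limits the precision.

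The arrays were alike in overall signal, with a median over all probe sets of 33.9 to 34.9 in unloaded pools and 34.6 to 35.6 in control pools. Log2 signals correlated at 0.988 between the unloaded pools and at 0.987 between the control pools, over the tested probe sets. Between pools of different groups the correlation was 0.973 to 0.974. The slow fibre transcripts that define this muscle were bright on every array, with the slow myosin heavy chain Myh7 at 9534.3 and 10728.4 in unloaded pools and 10907.4 and 11198.2 in control pools.

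Pygm encodes the muscle isoform of glycogen phosphorylase, which splits glucose 1-phosphate off the glycogen chain. Probe set L10669_at gave signals of 3195.0 and 3687.5 in the unloaded pools, against 2993.7 and 2969.2 in the control pools. Both unloaded pools lay above both control pools, and the unloaded pools differed from each other by more than the nearer of them differed from the controls. The log2 fold change was 0.20 (SE 0.10, interval -0.02 to 0.43, adjusted p = 0.284), a ratio of 1.15. The second probe set, L10669_g_at, was built on the same sequence and so is no independent reading. It gave 3855.9 and 4638.8 in the unloaded pools, against 3515.5 and 3665.9 in the control pools. The order of the pools was the same in that the higher unloaded pool was pool 2 on both probe sets. Its log2 fold change was 0.24 (SE 0.11, interval -0.01 to 0.48, adjusted p = 0.259).

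Phka1 encodes the muscle alpha subunit of phosphorylase kinase, a regulatory subunit that restrains the enzyme until it is phosphorylated. Its probe set gave 101.3 and 131.0 in the unloaded pools, against 156.1 and 148.0 in the control pools. Both unloaded pools lay below both control pools, and the SD between pools was 21.0 in unloaded and 5.73 in control rats. The log2 fold change was -0.37 (SE 0.15, interval -0.71 to -0.03), a ratio of 0.772. Of the 9 probe sets it alone passed before adjustment, and its adjusted p in limma was 0.201. Among all tested probe sets 18.1% had a larger difference in either direction.

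Phkg1 encodes the catalytic gamma subunit of muscle phosphorylase kinase, the part that phosphorylates glycogen phosphorylase. Its brightest probe set, X07320_at, gave 244.4 and 214.1 in the unloaded pools, against 220.4 and 168.6 in the control pools. The groups overlapped, and the log2 fold change was 0.24 (SE 0.15, interval -0.11 to 0.58, adjusted p = 0.420). With 1 pool left out it lay between 0.05 and 0.42. Probe set M98826mRNA_g_at gave 79.0 and 81.1 in the unloaded pools, against 82.5 and 68.8 in the control pools, so that both unloaded pools lay between the control pools. Its log2 fold change was 0.08 (SE 0.15, adjusted p = 0.825). The dimmest, M98826mRNA_at, gave 31.1 and 32.0 in the unloaded pools, against 26.0 and 20.6 in the control pools. These groups did not overlap, and the log2 fold change was 0.33 (SE 0.19, interval -0.11 to 0.78, adjusted p = 0.375). All 3 fold changes were above 0 and none passed.

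The alpha and gamma subunits of phosphorylase kinase thus had measured differences of opposite sign, -0.37 for Phka1 and 0.08 to 0.33 for Phkg1. Neither difference passed, and whether they differ from each other was not tested. Calmodulin, which gives the kinase its calcium sensitivity as its delta subunit, was read for Calm2 at 350.5 and 282.0 in the unloaded pools, against 322.7 and 334.5 in the control pools (log2 fold change -0.06, SE 0.13, adjusted p = 0.840). With the probe sets of a gene averaged, Phkg1 gave 0.22 (SE 0.15, adjusted p = 0.470) over 3152 genes, and the single probe set of Phka1 gave an adjusted p of 0.182 there.

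Pgm1 encodes phosphoglucomutase, which converts glucose 1-phosphate and glucose 6-phosphate into each other and therefore serves both synthesis and breakdown. The differences on its 3 probe sets were not of one sign. Probe set rc_AA894296_at gave 1108.5 and 1220.3 in the unloaded pools, against 994.0 and 1036.2 in the control pools. Both unloaded pools lay above both control pools, with a log2 fold change of 0.20 (SE 0.09, interval -0.02 to 0.41, adjusted p = 0.287). Probe set L11694_at gave 1020.4 and 1204.9 in the unloaded pools, against 1246.0 and 1099.4 in the control pools. The groups overlapped, and the log2 fold change was -0.08 (SE 0.11, adjusted p = 0.770). Probe set U20195_s_at gave 306.3 and 316.4 in the unloaded pools, against 312.0 and 354.4 in the control pools. These also overlapped, with a log2 fold change of -0.09 (SE 0.11, adjusted p = 0.699). Averaged over its probe sets, Pgm1 gave 0.01 (SE 0.09, adjusted p = 0.974).

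**Figure D1:**
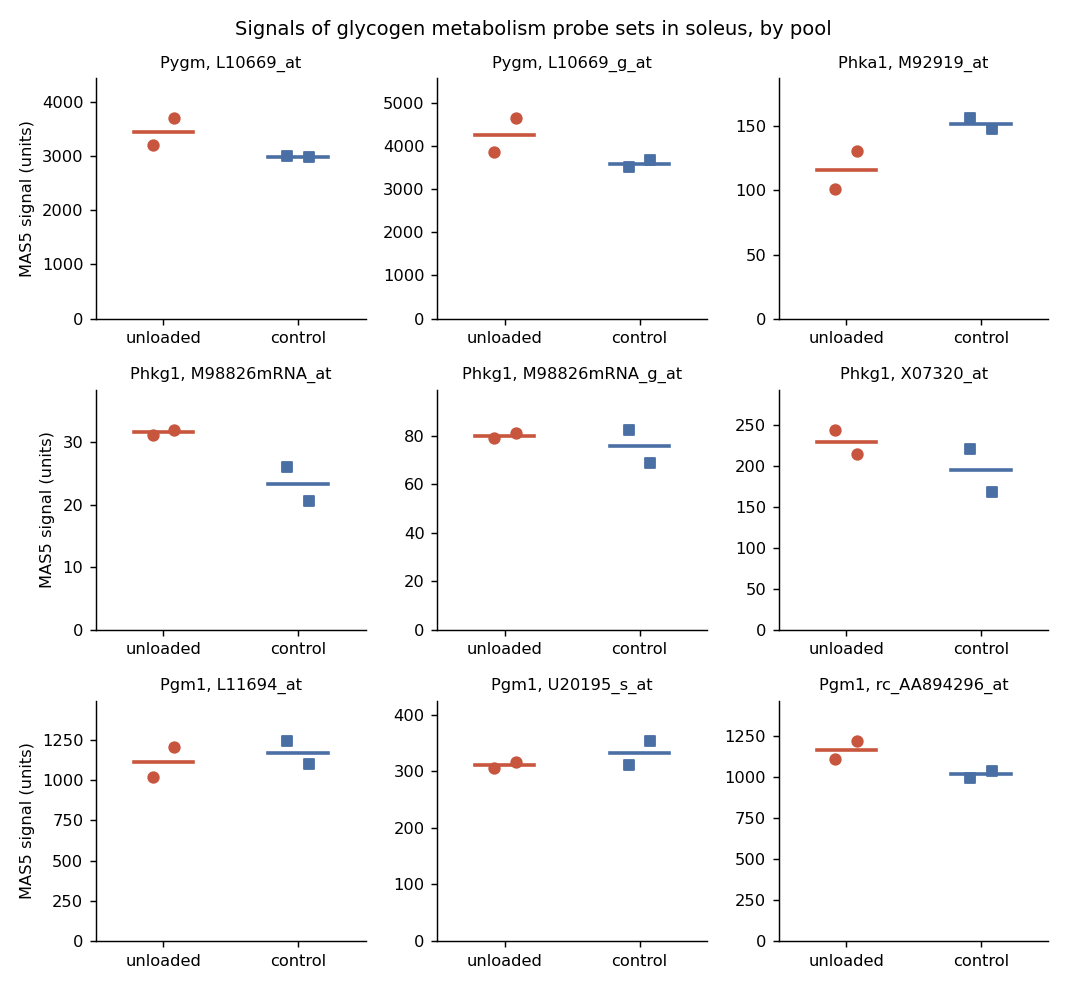
MAS5 signal on a linear axis from 0 for each of the 9 probe sets of Pygm, Phka1, Phkg1 and Pgm1, with circles for the 2 unloaded pools, squares for the 2 control pools and a line at each group's mean. Both Pygm probe sets, M98826mRNA_at of Phkg1 and rc_AA894296_at of Pgm1 had both unloaded pools above both control pools, Phka1 had both below, and the other 4 probe sets overlapped.

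Counted over the 9 probe sets, both unloaded pools lay above both control pools on 4 and below them on 1. Over all tested probe sets these shares were 25.5% and 25.3%. Fold changes were above 0 on 6 of 9, against 50.3% of all tested probe sets. The median log2 fold change of the 9 was 0.20, beside 0.00 over all tested probe sets, and the median absolute log2 fold change was 0.20, beside 0.17. Both Pygm probe sets share 1 sequence, as do 2 of the Phkg1 probe sets, so the 9 are not separate genes.

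**Figure D2:**
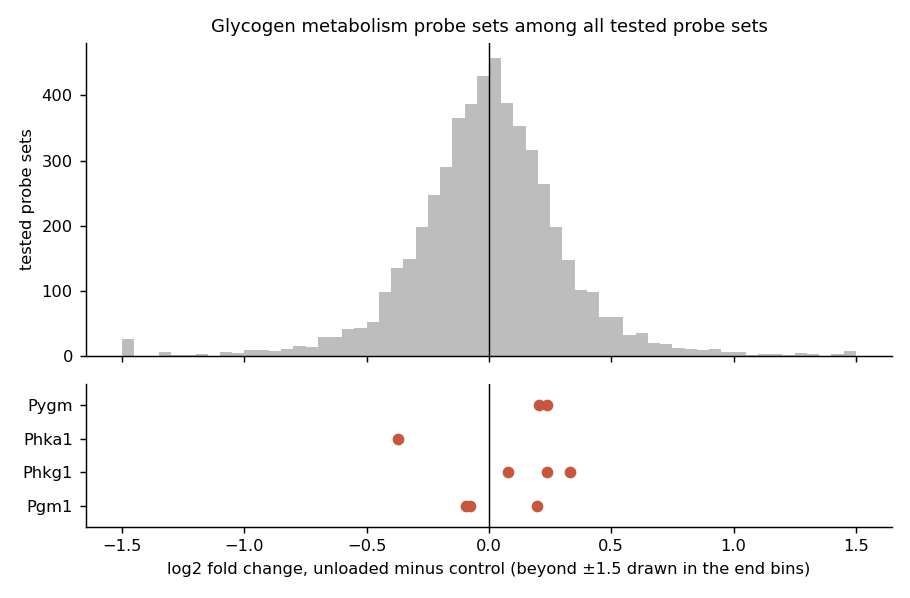
Upper panel, number of tested probe sets by log2 fold change (unloaded minus control, bins of 0.05) over all 5257 tested probe sets. Lower panel, the 9 probe sets of Pygm, Phka1, Phkg1 and Pgm1 on the same axis, which run from -0.37 to 0.33 and lie within the central mass of the distribution.

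The intervals bound how large a difference these arrays leave possible. For 7 of the 9 probe sets the 95% interval lay within a 1.5-fold difference in either direction, X07320_at of Phkg1 only just, at 1.496. The exceptions were Phka1, whose interval reached a ratio of 0.610, and the dimmest Phkg1 probe set, whose interval reached 1.72. No interval reached a 2-fold difference on the scale of log2(signal + 9). The offset shrinks differences of dim probe sets, so these bounds hold for the offset used. With an offset of 1 the dimmest Phkg1 probe set gave 0.43 (SE 0.25) and X07320_at of Phkg1 gave 0.25 (SE 0.155). Their intervals were then wider, so the count of 7 rests on the offset of 9. For Pygm the intervals ended at ratios of 1.34 and 1.40. These intervals rest on 2 residual degrees of freedom and on the spread that limma borrows from all probe sets, and they are not widened for the number of probe sets.

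**Figure D3:**
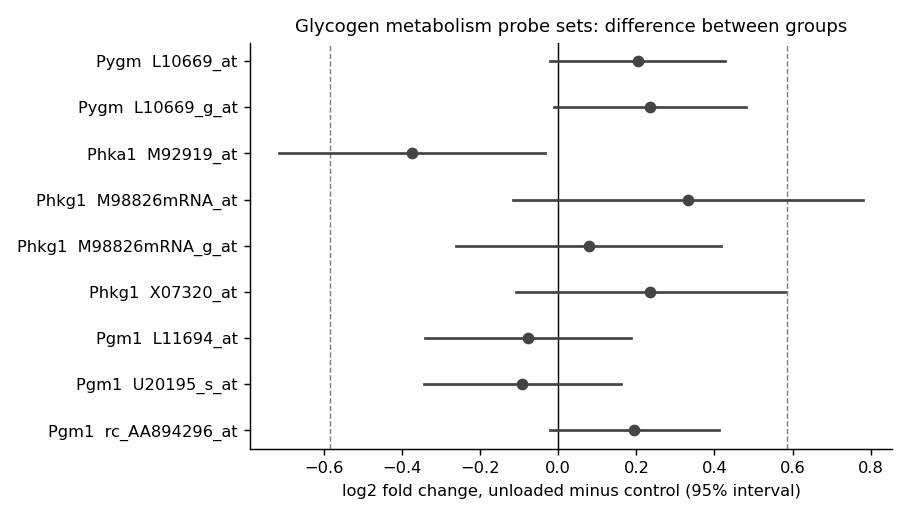
Log2 fold change (unloaded minus control) with its 95% interval for the 9 probe sets, where the solid line marks 0 and the dashed lines a 1.5-fold difference either way. Only the interval of Phka1 leaves out 0, and its adjusted p was 0.201.

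The wider pathway was read from 58 further genes in 5 groups, each gene by its brightest tested probe set. Of these, 38 had a probe set, 33 were tested, 3 rose, 0 fell and 30 did not pass. Over all 3152 tested genes, 2.54% rose and 2.16% fell. The unadjusted counts given below stand beside 20.8% of all tested probe sets at an unadjusted limma p under 0.05. The median log2 fold change of the 33 genes was 0.01, and that of all tested genes was also 0.01. The 33 include Adcy5 and Adcy6, which passed the filter on dim probe sets only through their unloaded signals.

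Among other glycogen enzymes and isoforms, 0 of 5 tested genes passed (limma, with 1 higher and 1 lower at an unadjusted p under 0.05), and the median log2 fold change was 0.09. Glycogenin, encoded by Gyg1, is the protein primer on which a glycogen chain starts. Its brightest probe set, L01793_at, gave 2263.7 and 2575.3 in the unloaded pools, against 2913.2 and 3170.8 in the control pools. Both unloaded pools lay below both control pools, with a log2 fold change of -0.33 (SE 0.10, interval -0.56 to -0.10, adjusted p = 0.112). The partner probe set L01793_g_at gave -0.20 (SE 0.09, adjusted p = 0.267). The remaining probe set, U96130_at, had the opposite sign, with 1730.3 and 1671.3 in the unloaded pools, against 1572.9 and 1484.6 in the control pools. That difference was 0.15 (SE 0.09, interval -0.05 to 0.36, adjusted p = 0.365), so the groups did not overlap on any of the 3 probe sets and yet the direction was not shared.

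Pygb, the brain isoform of phosphorylase, gave 95.4 and 78.2 in the unloaded pools, against 66.3 and 51.9 in the control pools (log2 fold change 0.49, SE 0.17, adjusted p = 0.158). Phkg2, the gamma subunit of liver and testis phosphorylase kinase, gave 0.16 (SE 0.19, adjusted p = 0.707). Gaa, the acid glucosidase that degrades glycogen in lysosomes, gave 0.09 (SE 0.14, adjusted p = 0.801). The liver isoforms of phosphorylase and glycogen synthase were under the filter. Pygl had signals of 13.1 and 1.9 in unloaded pools and 2.7 and 3.7 in control pools, and Gys2 had 2.1 and 2.8 in unloaded pools and 2.6 and 3.2 in control pools.

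Protein phosphatase 1 dephosphorylates glycogen synthase, phosphorylase and phosphorylase kinase. Of its tested catalytic subunits and regulators 0 of 5 passed, also 0 at an unadjusted p under 0.05, with a median log2 fold change of -0.03. The catalytic subunits gave -0.05 (SE 0.09) for Ppp1cb, which gave 0.13 (SE 0.10) on a dimmer probe set, and -0.03 (SE 0.11) for Ppp1ca. Ppp1r1a, an inhibitor that acts when protein kinase A has phosphorylated it, had 795.8 and 777.5 in the unloaded pools, against 709.7 and 670.9 in the control pools. Both unloaded pools were higher, with a log2 fold change of 0.19 (SE 0.09, adjusted p = 0.296), and its second probe set gave 0.11 (SE 0.12). Inhibitor Ppp1r2 gave -0.04 (SE 0.12). The glycogen-targeting subunit Ppp1r3b was under the filter, at 2.6 and 1.5 in unloaded pools and 0.4 and 5.3 in control pools.

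Among kinases that act on glycogen enzymes 1 of 13 tested genes rose, none fell and 12 missed the threshold (median log2 fold change -0.01). The gene that rose was Prkab1, a beta subunit of AMP-activated protein kinase, which carries a glycogen-binding module. It gave 218.6 and 236.9 in the unloaded pools, against 132.8 and 128.0 in the control pools. The groups were apart by far more than the spread within either, with a log2 fold change of 0.76 (SE 0.11, interval 0.50 to 1.03, adjusted p = 0.00976). The call ended whichever pool was left out, with values of 0.71 to 0.82 and adjusted p of 0.0642 to 0.105. The catalytic subunits of the same kinase gave -0.36 (SE 0.18, adjusted p = 0.305) for Prkaa1 and 0.10 (SE 0.17) for Prkaa2, and the gamma subunit Prkag1 gave -0.06 (SE 0.12). Prkab2, another beta subunit, had no probe set under its symbol. Prkaca, the catalytic subunit of protein kinase A, which phosphorylates phosphorylase kinase, gave -0.21 (SE 0.10, adjusted p = 0.271), and -0.12 (SE 0.11) on its other probe set. Akt1, a kinase of insulin signalling, gave 0.16 (SE 0.12) and 0.15 (SE 0.10), while Akt2 gave -0.11 (SE 0.12) and -0.26 (SE 0.14). Glycogen synthase kinase 3, which inactivates glycogen synthase, gave -0.05 (SE 0.11) for Gsk3a. For Gsk3b it gave -0.01 (SE 0.15) and -0.18 (SE 0.18).

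Of listed receptors and adenylyl cyclases 0 of 4 tested genes passed (limma, with 2 higher, Adcy2 and Adcy6, and 1 lower at an unadjusted p under 0.05). Adcy5 and Adcy6 passed the filter on dim probe sets only through their unloaded signals, so no median is given for this group and their sign is not to be read as a result. The 3 listed cyclases, which make cyclic AMP, gave 0.39 (SE 0.14, adjusted p = 0.163) for Adcy2, 0.64 (SE 0.25, adjusted p = 0.200) for Adcy6 and 0.43 (SE 0.23, adjusted p = 0.331) for Adcy5. Of cyclases outside the list, taken up after their values were seen, Adcy4 gave -0.63 (SE 0.19, adjusted p = 0.109) and passed the filter only through its control signals, and Adcy3 gave 0.23 (SE 0.21, adjusted p = 0.609). Adcy6 was dim, at 32.4 and 24.0 in the unloaded pools, against 19.2 and 11.1 in the control pools. The insulin receptor Insr gave 48.9 and 58.0 in the unloaded pools, against 84.8 and 65.2 in the control pools. Its log2 fold change was -0.42 (SE 0.17, adjusted p = 0.223). With 1 pool left out Insr lay at -0.59 to -0.25 and Adcy5 at 0.20 to 0.67.

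Genes that supply or use glucose 6-phosphate held the other 2 calls, so that 2 of 6 tested genes rose, none fell and 4 missed the threshold (median log2 fold change 0.02). Slc37a4, which carries glucose 6-phosphate into the endoplasmic reticulum, gave 325.9 and 342.7 in the unloaded pools, against 184.6 and 234.7 in the control pools. The log2 fold change was 0.66 (SE 0.13, adjusted p = 0.0318), and its other probe set, from the same sequence, rose by 0.57 (SE 0.11, adjusted p = 0.0280) at 289.1 and 288.4 in the unloaded pools, against 181.9 and 203.0 in the control pools. With dim probe sets kept in, the adjusted p were 0.106 and 0.0722, and with no mean-variance trend 0.0935 and 0.0838. The call of the brighter probe set was lost without control pool 1 (0.49), unloaded pool 1 (0.70) and unloaded pool 2 (0.62), and that of the dimmer one whichever of the 4 pools was left out (0.49 to 0.64).

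Pfkm, the muscle phosphofructokinase of glycolysis, gave 2687.0 and 2712.5 in the unloaded pools, against 1895.7 and 1738.2 in the control pools. It rose by 0.57 (SE 0.09, adjusted p = 0.0113). The call ended with any 1 pool left out (0.51 to 0.63, adjusted p of 0.0681 to 0.109), and another probe set gave 0.08 (SE 0.09). Hexokinase Hk2, which makes glucose 6-phosphate from entering glucose, gave 121.6 and 150.9 in the unloaded pools, against 199.2 and 217.5 in the control pools. This difference of -0.59 (SE 0.14) missed the threshold at an adjusted p of 0.0514, and the other Hk2 probe set gave -0.05 (SE 0.11). The glucose transporter Slc2a1 gave -0.61 (SE 0.17, adjusted p = 0.0965), and its other probe set was under the filter. Slc2a4, another glucose transporter, gave 0.06 (SE 0.09) and 0.18 (SE 0.11). The hexokinase Hk1 gave -0.01 (SE 0.13) and -0.08 (SE 0.18), and neither gene passed.

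**Figure D4:**
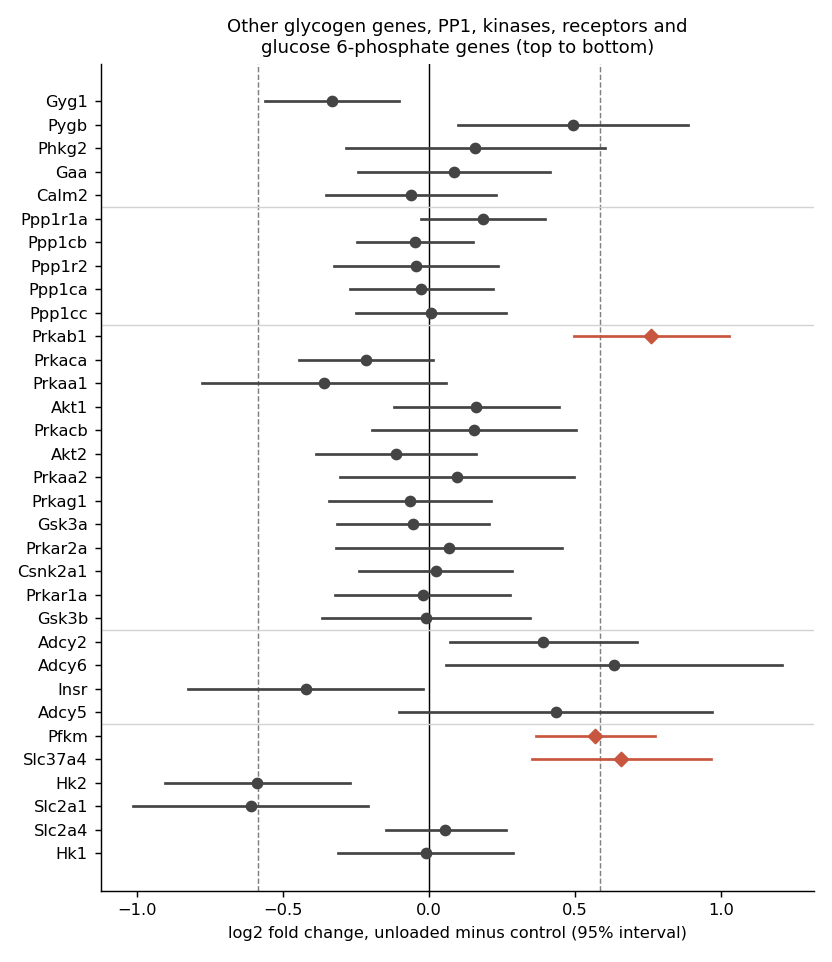
Log2 fold change (unloaded minus control) with its 95% interval for the 33 tested genes of the wider pathway, each by its brightest probe set, with grey lines between the 5 groups and dashed lines at a 1.5-fold difference. Diamonds mark the 3 genes that rose, Prkab1, Slc37a4 and Pfkm, and circles the 30 that did not pass. Among the circles, Adcy5 and Adcy6 passed the filter on dim probe sets only through their unloaded signals.

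Fast muscle fibres are known to be richer in glycolytic and phosphorylase activity than slow ones. Of 11 tested fast fibre genes, each by its brightest probe set, 6 rose, none fell and 5 missed the threshold (median log2 fold change 0.46). Over all tested genes, 2.54% rose. The summed signal of the 12 fast fibre genes with a probe set was 20405.0 and 20622.5 in the unloaded pools, against 15226.4 and 13941.0 in the control pools. Fast troponin I, Tnni2, gave 1.04 (SE 0.14, adjusted p = 0.00549), and the heavy chain Myh2 gave 0.63 (SE 0.14, adjusted p = 0.0403). A rise was not seen on every fast gene. The heavy chains Myh1 and Myh4 gave -0.04 (SE 0.21) and 0.15 (SE 0.21), Pvalb gave -0.135 (SE 0.19), and none of these passed. Myh4 was dim, at 33.5 and 24.8 in unloaded and 22.2 and 28.2 in control pools. Pvalb was dim too, at 35.6 and 27.8 in unloaded and 37.8 and 33.3 in control pools, which limits what can be read of both. The brighter Myl1 and Casq1 gave 0.17 (SE 0.09) and 0.19 (SE 0.09) and also missed the threshold. By brightest probe set, none of 6 slow fibre genes passed (limma, also 0 at an unadjusted p under 0.05). Dimmer probe sets of the slow calcium pump Atp2a2 gave 0.29 and -0.28. Their unadjusted limma p were 0.0266 and 0.0451, and their adjusted p 0.176 and 0.231. The summed signal of the slow genes was 34849.0 and 38380.0 in the unloaded pools, against 37169.8 and 36567.8 in the control pools. The part of these markers in the Pygm, Pfkm and Phka1 differences was not tested. In bulk RNA, fewer fibres of a type and less transcript per fibre cannot be told apart.

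Markers of other cells in the muscle gave no call on a gene's brightest probe set, with 0 of 3 tested adipocyte genes, 0 of 3 endothelial, 0 of 4 smooth muscle, 0 of 2 blood, 0 of 3 leukocyte and 0 of 2 Schwann cell genes (limma, with 1, 0, 1, 2, 0 and 0 of these higher, and 1 adipocyte gene lower, at an unadjusted p under 0.05). A dimmer probe set of the smooth muscle actin Acta2 rose by 0.82 (SE 0.15, adjusted p = 0.0221), while its brightest gave 0.25 (SE 0.11). The summed signal of the smooth muscle genes was 1205.3 and 1306.0 in the unloaded pools, against 968.9 and 1086.7 in the control pools. That of the blood genes was 5131.5 and 5035.3 in the unloaded pools, against 4256.1 and 4507.5 in the control pools. The adipocyte sum was 1253.8 to 1474.7 in unloaded pools and 1338.2 to 1571.4 in control pools, and the leukocyte sum 466.1 to 560.5 in unloaded and 386.5 to 582.6 in control pools, so both overlapped. The endothelial sum was 192.2 to 193.2 in unloaded and 205.5 to 214.3 in control pools, and the Schwann cell sum 543.5 to 558.3 in unloaded and 575.6 to 626.3 in control pools, so both were lower in unloaded pools. A single gene carried each of these sums or their difference, with Pmp22 at 508.2 and 521.3 in unloaded and 540.8 and 599.2 in control pools, and Kdr, whose groups overlapped, at 26.7 and 17.0 in unloaded and 25.5 and 55.0 in control pools. No marker was at 0 on all arrays. The part of these cells in the glycogen gene values was not tested.

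For Phka1, which had the smallest p of the 9 probe sets, the 5 other genes closest in pattern over the 4 arrays were Fgfr4, Hsf1, Vegfd, Dnm1l and Ppp1r12a. Likeness was the Euclidean distance between log2 signals centred on their own mean, from 0.036 to 0.070. Their log2 fold changes ran from -0.42 to -0.38, a likeness that the choice itself brings, and none passed. Vegfd passed the filter on dim probe sets only through its control signals. With 4 arrays in 2 groups, such a likeness describes a shared order of the pools and no more.

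**Figure D5:**
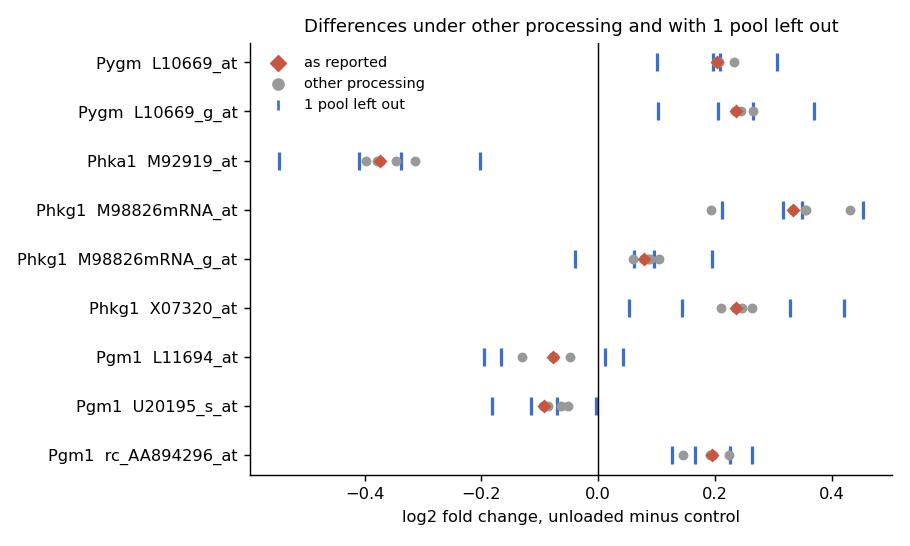
Log2 fold change (unloaded minus control) of the 9 probe sets as reported (diamonds), under other processing (circles) and with 1 pool left out (bars). With 1 pool left out Pygm lay at 0.10 to 0.31 and 0.10 to 0.37 and Phka1 at -0.55 to -0.20, and the sign turned for L11694_at of Pgm1 and M98826mRNA_g_at of Phkg1.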

How the data were processed

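The authors deposited intensity values for 4 Affymetrix arrays, made with MAS5 per the submitters' processing notes. Settings and detection calls are not known here. The mean signal, trimmed by 2% at each end, was 150.2 or 150.3 on every array, so a common scale had been set. Of 8799 probe sets, 59 controls were left out. Names came from the platform annotation, updated by gene ID to RefSeq (GRCr8), and 7006 probe sets had 1 symbol. No sequence or coordinate was used.

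The offset of 9 in log2(signal + 9) is the 25th percentile of signals, and probe sets averaging under 21.0 (the 40th percentile) were not tested. The test was limma (version 3.58.1, R 4.3.3, lmFit, eBayes with trend, 5.80 prior degrees of freedom). It was also run on simulated data. The changes set there were larger than those measured on the member probe sets, so detection at their size was not tested. Members and lists were chosen with earlier results of these data known. Named were all member probe sets, up to 4 genes per pathway group by smallest p plus any that passed, fibre markers and the 5 genes nearest in pattern to the member with the smallest p. Calm2, Adcy3, Adcy4, Atp2a2, Acta2, Pmp22, Kdr, Prkaa2, Prkag1, Gsk3a, Gsk3b, Akt2, Slc2a4 and Hk1 were named after their values were seen. So were genes under the filter. The labels do not say that pool numbers pair the groups, and same-numbered pools' deviations correlated at -0.04. Alternatives covered normalization, offset, filter, trend, a pool block, each pool left out, the threshold and gene means. Figures used matplotlib 3.10.9.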

Additional observations from a re-analysis of the deposited data

How the results depend on the processing

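No probe set of Pygm, Phka1, Phkg1 or Pgm1 passed in any of 107 refits (12 per probe set, 11 for the dimmest Phkg1 probe set, which the stricter filter removed), with adjusted p from 0.121. Nor did any pass at an adjusted p under 0.10 or as a mean per gene. The sign was kept in every refit on 7 of the 9. It turned on L11694_at of Pgm1 (-0.196 to 0.042 with 1 pool left out) and M98826mRNA_g_at of Phkg1 (-0.039 to 0.195), and the cause was not tested. The count over all probe sets, 276, was 90 without a filter, 113 without a trend, 165 with the replicate block, 67 to 84 with 1 pool left out and 458 at an adjusted p under 0.10. The block also ended the call of the dimmer Slc37a4 probe set (adjusted p = 0.0606), and 2 settings, an offset at the 50th percentile and the stricter filter, brought Hk2 past the threshold (adjusted p = 0.0484 and 0.0240). Pfkm was lost without a filter (0.0547) or a trend (0.0764), as were both Slc37a4 probe sets (0.0722 and 0.106 without a filter, 0.0838 and 0.0935 without a trend). With 1 pool left out the sign also turned for Phkg2 (-0.034 to 0.352), Gaa (-0.12 to 0.29), the dimmer Ppp1r1a probe set (-0.034 to 0.246), Ppp1r2 (-0.129 to 0.042), Ppp1ca (-0.125 to 0.074, and 0.003 with median scaling) and the dimmer Prkaca probe set (-0.23 to 0.00). A lone pool was then assumed to vary like the other group. Signals of dim probe sets lie near background and limit what can be read of Phkg1.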

Other observations

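Some probe sets under the filter were also read. A dimmer Pygb probe set gave 22.7 and 24.2 in the unloaded pools, against 19.6 and 14.0 in the control pools, with both unloaded pools above both control pools as on its brighter partner, while the remaining Pygb probe set gave 4.9 and 4.1 in unloaded pools and 5.1 and 4.0 in control pools. The fast myosin-binding protein Mybpc2 gave 17.6 and 25.8 in the unloaded pools, against 5.5 and 2.8 in the control pools. Some other genes under the filter went the other way, but their marker lists were not of one direction. The adipocyte gene Plin1 gave 5.8 and 12.9 in the unloaded pools, against 19.5 and 19.3 in the control pools. The leukocyte gene Itgam gave 3.5 and 0.6 in the unloaded pools, against 4.6 and 4.7 in the control pools. These values were not tested.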
